A study of Homo sapiens with 6 samples.

Results

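The genes described here encode the machinery of the synaptic vesicle and the synapse: the fusion proteins, calcium sensors, vesicle membrane proteins, RAB3 GTPases, active zone scaffolds, endocytic proteins, and a few proteins of synaptic adhesion and the postsynaptic side. They are 41 genes chosen by name from the 60612 in the deposited table, and each was found there on a single row. Their expression was measured by RNA-seq in SH-SY5Y, an established human neuroblastoma line of sympathoadrenal type that is widely used as a neuron-like culture. One group of 3 libraries came from cells labelled as overexpressing CDKN2B-AS1, an antisense long noncoding RNA of the CDKN2B locus, and the other group of 3 came from cells infected with a control vector, called stuffer in the sample titles. The title of the series speaks of a mutation of CDKN2B-AS1, while every treated sample is labelled overexpression. In the table, overexpression columns are tagged LVx2 and control vector columns LVx1, tags that the sample records leave unexplained; whatever they mark and the contrast of the groups cannot be told apart. No promoter, clone or time after infection is given in the sources used here.

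A synaptic vesicle docks at the active zone, a protein meshwork under the presynaptic membrane, and is primed by a SNARE complex of one vesicle protein (VAMP2) and the plasma membrane proteins STX1A and SNAP25. Calcium entry acts on synaptotagmins, which trigger fusion, and the ATPase NSF with its SNAP adaptors then takes the spent complex apart. The vesicle membrane is recovered by endocytosis, in which dynamin cuts the neck of the bud and synaptojanin and auxilin-type factors strip its coat. Neuroblastoma cells hold dense-core vesicles that use much of the same fusion machinery.

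Expression is given as FPKM, fragments scaled to the gene's length and to the fragments assigned in the library, so that levels can be compared between genes. The depth recovered from these values ran from 20466583 to 48996425 fragments in the labelled overexpression libraries and from 29048596 to 45102020 in the control vector libraries. CDKN2B-AS1 itself was only slightly higher where it was labelled as overexpressed, at 0.338, 0.304 and 0.353 FPKM in replicates 1, 2 and 3 of the labelled overexpression against 0.272, 0.288 and 0.191 FPKM in those of the control vector, a ratio of means of 1.33 (exact two-sided permutation test, p = 0.1, which no 3 against 3 comparison can go below). Of 12 markers of adrenergic neuroblastoma, 11 reached 1 FPKM in at least 3 libraries, and the exception was TH, the first enzyme of catecholamine synthesis, which was listed at 0 in 4 of the 6 libraries. Of the 8 fibroblast or mesenchymal markers 5 did so, with a summed level of 34.4 to 45.4 FPKM in labelled overexpression and 30.8 to 46.5 FPKM in control vector libraries, and of 6 Schwann or glial markers only S100B did. None of the 5 immune and 5 epithelial markers reached that level, and PTPRC and CD3E were listed at 0. Separate cultures are nowhere stated for the replicates, so the p-values below reflect only library-to-library spread, possibly technical.

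SYT11 was the member that passed the test, and it was higher in the labelled overexpression libraries. A gene was tested when it reached 1 FPKM in at least 3 of the 6 libraries, which 26 members did. They were fitted with all 13984 such genes by limma-trend on log2(FPKM + 0.5), with Benjamini-Hochberg adjustment at 0.05. Of the 26 members 1 was higher, 0 were lower and 25 did not pass, where 1.14% of all tested genes passed, 0.529% higher and 0.608% lower. Over all genes 74 were higher and 85 lower, a split that became 181 and 52 with values rescaled to a common total and 59 and 119 with median-of-ratios factors. At an unadjusted limma-trend p under 0.05 there were 5 members higher (SYT11, ERC1, SV2C, UNC13A and SV2A) and 0 lower, against 10.4% and 7.34% of all tested genes. The members' median log2 fold change was 0.27, beside 0.05 over all tested genes, and 19 members had a fold change above 0, which held for 56.8% of all tested genes. The filter lets in genes through the group where they are high. UNC13A and HOMER1 reached 1 FPKM in the labelled overexpression libraries alone. SV2C and SYNJ1 reached it in those 3 libraries and only 1 control vector library. These counts, and those of groups lying apart, therefore describe the list and support nothing further. In whole-culture RNA, fewer cells that express a gene and less of its RNA per cell cannot be told apart.

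The groups did not overlap for 8 of the 26 tested members, and in all 8 the labelled overexpression libraries were the higher ones, where 24.1% of all tested genes lay apart, 14.2% in that direction and 9.9% in the other. With genes chosen instead by a mean of at least 1 FPKM over all libraries, a filter added after the data were seen, 7 of 25 members lay apart upwards and 0 downwards, where 14.1% and 10% of 13760 genes did. This filter too lets genes in through the higher group. UNC13A, SV2C and SYNJ1, among the 7, had control vector means of 0.816, 0.915 and 0.878 FPKM. Summed over the 26 tested members, expression was 256, 264 and 265 FPKM in labelled overexpression replicates 1, 2 and 3 and 214, 218 and 241 FPKM in the control vector replicates. Much of that difference rests on SYT11 alone. It added 51.8, 48.4 and 61.3 FPKM to the labelled overexpression sums and 28.4, 32.2 and 37.8 FPKM to the control vector sums. FPKM summed over all genes went the other way, with 349703 to 365333 in labelled overexpression and 381310 to 400215 in control vector libraries. Control vector replicate 3 held the highest control value in 13 of the 26 tested members, against 5 and 8 for replicates 1 and 2. Labelled overexpression replicates 1, 2 and 3 held the highest value of their group in 6, 10 and 10. Whether all tested genes follow the same order was not tested.

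**Figure D1:**
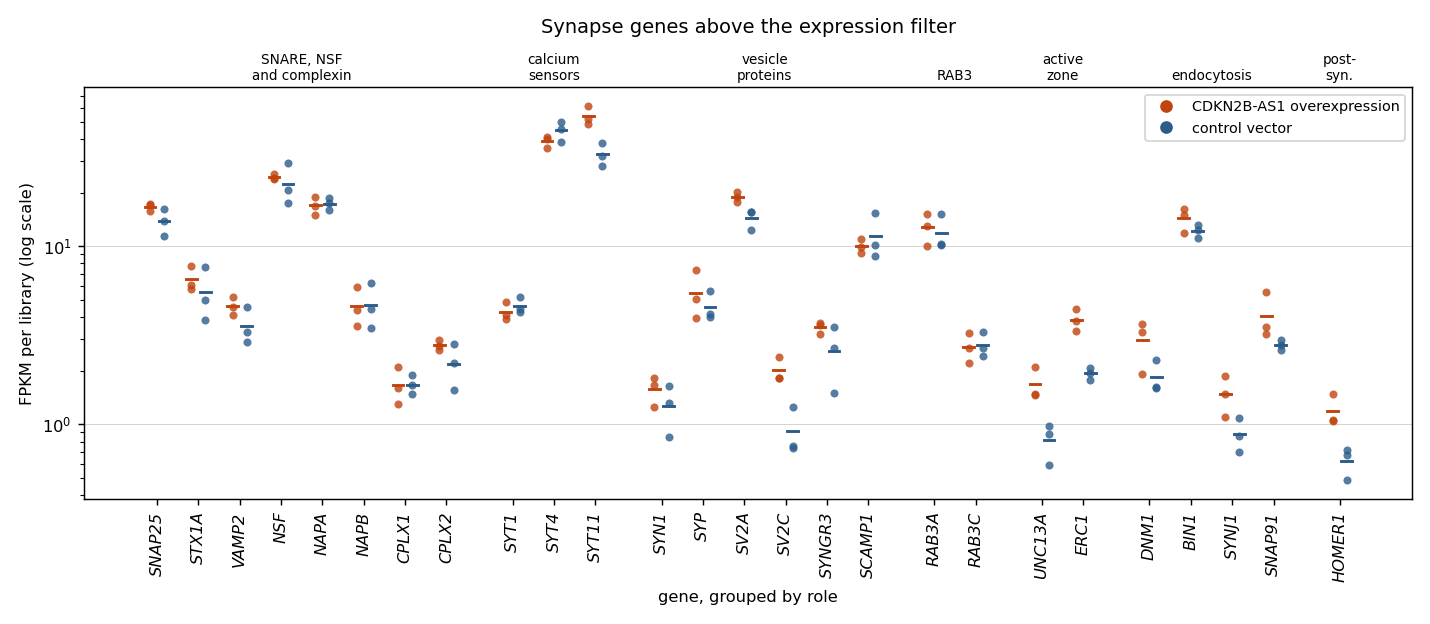
FPKM in each library (log scale) of the 26 synapse genes above the expression filter, grouped by role, with labelled overexpression left of control vector in each pair; points are libraries and bars are means of 3. SYT11 and SYT4 stand highest, and ERC1, SNAP91, SV2C, UNC13A, SYNJ1 and HOMER1 show groups that do not overlap at low levels.

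**Figure D2:**
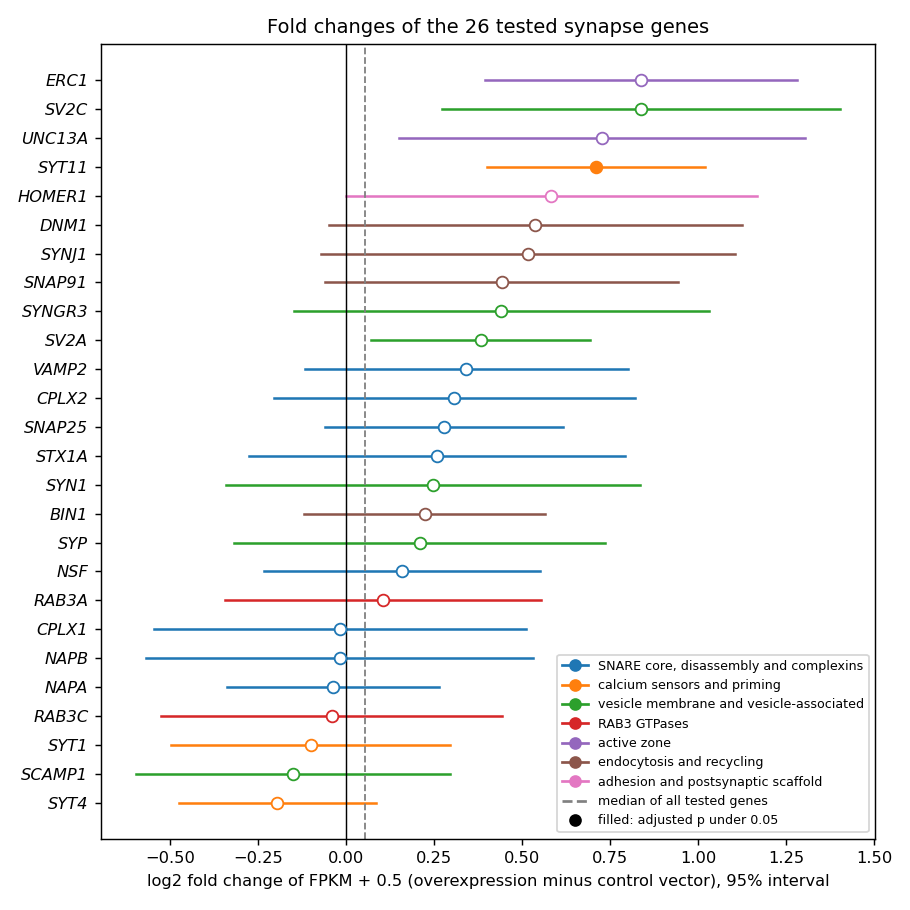
Log2 fold change on the FPKM + 0.5 scale (labelled overexpression minus control vector) of the 26 tested synapse genes with 95% intervals from limma-trend, coloured by role and filled where the adjusted p is under 0.05. SYT11 alone is filled, at 0.71, and the dashed line is the median of all tested genes, at 0.05.

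Promoter sequence from RefSeq (GRCh38.p14, 250 bases before to 50 after the annotated start) was matched by symbol for 35 of the 41 members; SNAP25, CPLX1, SYNGR3, RIMS2, CADPS2 and NRXN2 were not matched. Many neuronal genes carry RE1, the binding motif of the repressor REST. The RE1 core, searched on both strands as CAGCACC and GGACAG with 2 free bases between them, stood in 1 member promoter, that of SYN1, and in 14 of all 27305 promoters (0.0513%). Its left part TTCAGCACC, which shares bases with the core, stood in the promoters of SYN1 and UNC13A (0.403% of all promoters), and its right part GGACAGCGC in those of UNC13A and BSN (0.645% of all). In UNC13A both parts lie on the strand opposite to the gene, the right part starting at base -11 and the left part at base 7 from the start site, farther apart than in the core. The cyclic AMP response element TGACGTCA was found in SYN1 alone of the members (1.98% of all promoters), the E-box CACGTG in NAPA and UNC13A (7.43% of all), and the GC box GGGGCGGGG in 13 of the 35 (16% of all). The median GC content of the member promoters was 70.3%, above the 58.3% of all promoters, and ran from 37.3% for SV2A to 82.3% for SYNGR1. The stretches below show the member that passed the test (SYT11), the tested member of next smallest p (ERC1), and the promoters with the left RE1 part (SYN1 and UNC13A). The promoter of BSN, which has the right part alone, is not shown. Capitals mark RE1 and cyclic AMP element letters in SYN1, both RE1 parts and a GC box in UNC13A, and GC boxes in ERC1; the SYT11 stretch has no match to the motifs named. A match is a run of letters and not a measured binding site.
SYT11 (chr1:155859467-155859566, plus strand): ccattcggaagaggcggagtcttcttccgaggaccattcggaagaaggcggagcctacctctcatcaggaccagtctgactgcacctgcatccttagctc
ERC1 (chr12:991123-991222, plus strand): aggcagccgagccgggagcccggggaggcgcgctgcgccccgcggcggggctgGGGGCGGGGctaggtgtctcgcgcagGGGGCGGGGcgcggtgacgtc
SYN1 (chrX:47619998-47620097, minus strand): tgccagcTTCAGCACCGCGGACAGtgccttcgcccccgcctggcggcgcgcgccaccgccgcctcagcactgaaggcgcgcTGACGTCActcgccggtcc
UNC13A (chr19:17688330-17688434, minus strand): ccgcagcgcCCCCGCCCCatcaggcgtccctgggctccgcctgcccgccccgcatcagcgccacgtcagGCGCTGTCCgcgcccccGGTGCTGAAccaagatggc
REST was expressed at 2.48, 2.43 and 2.94 FPKM in the labelled overexpression libraries and 1.84, 2.23 and 2.26 FPKM in the control vector libraries, and did not pass (limma-trend, log2 fold change 0.26, Benjamini-Hochberg adjusted p = 0.552).

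The SNARE proteins of fusion were all expressed. Of the 8 genes of fusion and SNARE disassembly 0 passed the test, where 1.14% of all tested genes did. SNAP25, which gives the complex a pair of its helices, stood at 17.0, 15.7 and 17.3 FPKM in labelled overexpression replicates 1, 2 and 3 and at 13.8, 16.3 and 11.4 FPKM in the control vector replicates. The groups overlapped through control vector replicate 2. STX1A, the plasma membrane syntaxin, had 5.73, 7.74 and 6.07 FPKM in labelled overexpression and 3.87, 7.69 and 5.01 FPKM in control vector libraries, with replicate 2 the highest of both groups. VAMP2, synaptobrevin, had 4.58, 5.19 and 4.10 FPKM in labelled overexpression and 4.56, 3.30 and 2.90 FPKM in control vector libraries, and control vector replicate 1 lay within the other group. Their log2 fold changes were 0.28, 0.26 and 0.34, with limma-trend Benjamini-Hochberg adjusted p of 0.374, 0.615 and 0.421. STX1A shares 662 exonic bases, 17.9% of its length, with BUD23 on the other strand, at 17.2 to 21.0 FPKM, and VAMP2 shares 403 with RP11-599B13.6 on its own strand, so fragments of these pairs may not be separable.

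NSF and its adaptors, which recycle SNARE proteins after fusion, were near equal in the groups' means. NSF had 24.3, 23.9 and 25.6 FPKM in labelled overexpression and 20.8, 17.5 and 29.3 FPKM in control vector libraries, so the controls spanned the whole of the other group. NAPA, which encodes alpha-SNAP, had 18.9, 16.9 and 15.0 FPKM in labelled overexpression and 18.6, 17.4 and 16 FPKM in control vector libraries. NAPB, for the brain-enriched beta-SNAP, had 4.39, 3.56 and 5.89 FPKM in labelled overexpression and 3.46, 4.45 and 6.21 FPKM in control vector libraries. The 95% interval of the log2 fold change was -0.34 to 0.26 for NAPA, -0.57 to 0.53 for NAPB and -0.23 to 0.55 for NSF. NAPA shares 988 exonic bases with NAPA-AS1 on the other strand and 752 with RP11-43N16.4 on its own. The recovered fragment numbers of NSF and NAPA are fractional.

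The complexins, small proteins that clamp and assist the SNARE complex, were low. CPLX1 had 1.299, 1.602 and 2.09 FPKM in labelled overexpression and 1.47, 1.66 and 1.88 FPKM in control vector libraries, with means of 1.66 ± 0.397 and 1.67 ± 0.205 FPKM (SD, n = 3 each). CPLX2 had 2.62, 2.96 and 2.74 FPKM in labelled overexpression and 2.82, 1.56 and 2.198 FPKM in control vector libraries. CPLX2 had the lower spread in the labelled overexpression group, with one control inside it. Neither passed, with log2 fold changes of -0.02 and 0.31 (limma-trend, Benjamini-Hochberg adjusted p = 0.980 and 0.525).

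Among the calcium sensors 3 synaptotagmins were tested, and SYT11 passed. SYT11, an unusual synaptotagmin that does not bind calcium and is known in rodent neurons as a brake on vesicle endocytosis, had 51.8, 48.4 and 61.3 FPKM in labelled overexpression replicates 1, 2 and 3 and 28.4, 32.2 and 37.8 FPKM in the control vector replicates. Every labelled overexpression library lay above every control, with means of 53.8 ± 6.67 and 32.8 ± 4.77 FPKM (SD, n = 3 each) and a ratio of 1.64. The log2 fold change was 0.71 (SE 0.14, 95% interval 0.40 to 1.02, limma-trend, Benjamini-Hochberg adjusted p = 0.0451). SYT11 lies on GRCh38 chromosome 1, 155859567 to 155885199, plus strand, shares no exonic base with another gene of the table, and its values rest on 4840 to 15560.5 fragments per library.

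The SYT11 call lay close to the threshold. Its log2 fold change stayed between 0.61 and 0.82 when any single library was left out, but it passed in 1 of those 6 settings, without control vector replicate 3 (adjusted p = 0.0381). The limma-trend Benjamini-Hochberg adjusted p was 0.158, 0.137 and 0.123 without labelled overexpression replicates 1, 2 and 3 and 0.126 and 0.130 without control vector replicates 1 and 2. In the last 5 settings 0 to 3 genes passed in the whole transcriptome. With each library's trend on gene length removed, SYT11 had 0.66 (limma-trend, Benjamini-Hochberg adjusted p = 0.0554). Its limma Benjamini-Hochberg adjusted p was 0.202 without a filter and 0.161 without the mean-variance trend, 2 settings in which 0 genes passed. Over all 19 alternatives SYT11 passed in 8 and did not pass in 11.

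SYT4, a synaptotagmin of dense-core vesicles that lacks the usual calcium response in mammals, was below SYT11 in every labelled overexpression library and above it in every control vector library. It had 35.5, 39.9 and 41.2 FPKM in labelled overexpression and 45.4, 38.7 and 49.9 FPKM in control vector libraries. The groups overlapped through control vector replicate 2, and its log2 fold change did not pass at -0.20 (95% interval -0.47 to 0.09, limma-trend, Benjamini-Hochberg adjusted p = 0.454). SYT1, the main calcium sensor of fast release, was far lower, with 4.86, 3.88 and 4.10 FPKM in labelled overexpression and 4.43, 4.27 and 5.16 FPKM in control vector libraries. Its log2 fold change was -0.10 (95% interval -0.50 to 0.30), and the lncRNA RP11-390N6.1 that overlaps it on the other strand was listed at 0. Whether the SYT11 fold change differs from those of SYT4 and SYT1 was not tested. The priming factor CADPS, which acts on dense-core vesicles, ran from 0.04998 to 0.102 FPKM in labelled overexpression and from 0.00235 to 0.160 FPKM in control vector libraries, and its paralog CADPS2 was listed at 0 in all 6 libraries.

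The SV2 family, transporter-like glycoproteins of the vesicle membrane, was represented by SV2A and at a lower level by SV2C, while SV2B was listed at 0 in all 6 libraries. SV2A had 17.6, 18.9 and 20.2 FPKM in labelled overexpression replicates 1, 2 and 3 and 15.5, 15.7 and 12.3 FPKM in the control vector replicates. SV2C had 1.81, 2.39 and 1.83 FPKM in labelled overexpression and 0.751, 0.737 and 1.26 FPKM in control vector libraries. It passed the filter through the labelled overexpression libraries, as only control vector replicate 3 of the controls reached 1 FPKM. For both genes the labelled overexpression libraries lay above all controls, as for 14.2% of all tested genes, with ratios of means of 1.31 and 2.19. Neither passed over all genes, with log2 fold changes of 0.38 (SE 0.14, adjusted p = 0.203) and 0.84 (SE 0.25, adjusted p = 0.145) in limma-trend with Benjamini-Hochberg adjustment. SV2C shares 90 exonic bases with the lncRNA RP11-466P24.6 on the other strand, which had 0.481, 0.679 and 0.621 FPKM in labelled overexpression and 0.249, 0.0455 and 0.152 FPKM in control vector libraries. Fragments of SV2C and RP11-466P24.6 may not be separable in the shared stretch, which is 0.8% of the length of SV2C.

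The other vesicle proteins overlapped between the groups. SYP, synaptophysin, the most used marker of small synaptic vesicles, had 5.08, 7.40 and 3.97 FPKM in labelled overexpression and 5.58, 4.15 and 4.01 FPKM in control vector libraries. SYN1, which tethers vesicles to actin and has RE1 letters in its promoter, had 1.81, 1.25 and 1.66 FPKM in labelled overexpression and 0.852, 1.63 and 1.31 FPKM in control vector libraries. Both spread more within a group than their means differed, with log2 fold changes of 0.21 and 0.25 (limma-trend, Benjamini-Hochberg adjusted p = 0.689 and 0.667). SYN1 shares 8 exonic bases with ARAF on the other strand and 928, 24.9% of its length, with RP1-230G1.7 on its own, and SYP shares 68 with SYP-AS1.

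SYNGR3, a synaptogyrin, had 3.60, 3.70 and 3.20 FPKM in labelled overexpression and 1.502, 2.67 and 3.52 FPKM in control vector libraries. Control vector replicate 3 reached the level of the other group, and the log2 fold change of 0.44 did not pass (limma-trend, Benjamini-Hochberg adjusted p = 0.419). SCAMP1, a carrier protein of recycling membranes, had 9.19, 10.97 and 9.92 FPKM in labelled overexpression and 10.2, 8.83 and 15.3 FPKM in control vector libraries. The lower group mean in labelled overexpression rested on control vector replicate 3, and the log2 fold change of -0.15 did not pass (limma-trend, Benjamini-Hochberg adjusted p = 0.739). SYNGR1 reached 1 FPKM in control vector replicate 2 alone and was not tested, at 0.771 to 0.943 FPKM in labelled overexpression and 0.316 to 1.099 FPKM in control vector libraries.

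The RAB3 GTPases, which ride on secretory vesicles and bind RIM proteins at the release site, showed a clear order of levels in every library. RAB3A, the main neuronal form, had 13.03, 15.2 and 10.1 FPKM in labelled overexpression and 10.2, 15.2 and 10.3 FPKM in control vector libraries. RAB3C had 2.202, 2.67 and 3.27 FPKM in labelled overexpression and 2.40, 2.69 and 3.30 FPKM in control vector libraries. Both overlapped fully, with log2 fold changes of 0.11 (95% interval -0.34 to 0.56) and -0.04 (95% interval -0.53 to 0.44). RAB3A shares 165 exonic bases, 9.2% of its length, with MPV17L2 on the other strand.

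RAB3B, a form found in endocrine as well as neural cells, was the lowest of the 3 and had the largest ratio of means of any member, 4.77. It had 0.449, 0.507 and 0.658 FPKM in labelled overexpression replicates 1, 2 and 3 and 0.0920, 0.0593 and 0.187 FPKM in the control vector replicates, which is 132.5 to 412 fragments against 22 to 104. The groups did not overlap, and RAB3B was too low for the filter. In limma-voom on the recovered fragments of 17767 genes with a mean of at least 20 fragments, a fit added after the data were seen, it was 5.02-fold higher (95% interval 2.52 to 10.02) and did not pass (Benjamini-Hochberg adjusted p = 0.0732). In that fit 0 of 38 members passed in either direction, where 0.174% of genes were higher and 0.146% lower.

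**Figure D3:**
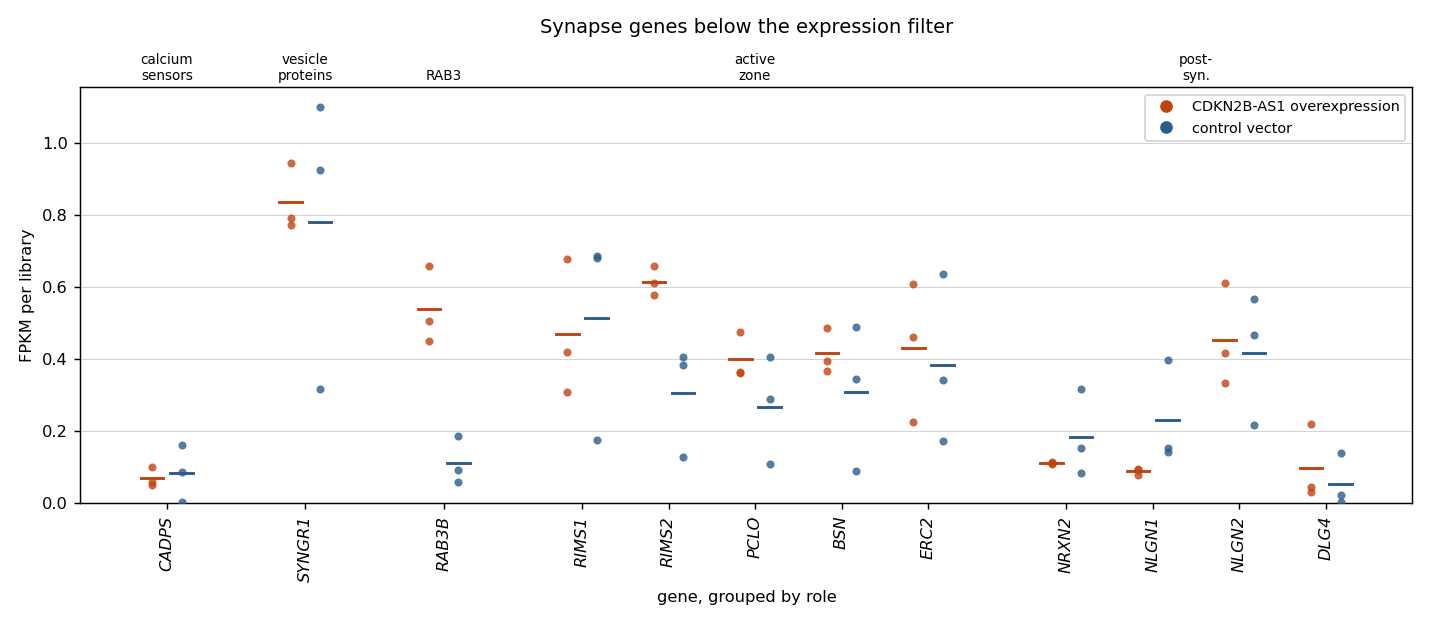
FPKM in each library (linear scale) of the 12 synapse genes with signal but below the expression filter, with labelled overexpression left of control vector; points are libraries and bars are means of 3. RAB3B and RIMS2 lie higher in labelled overexpression without overlap, NLGN1 lies lower without overlap, and the other 9 overlap.

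At the active zone 2 of 7 genes were high enough to test, and both stood apart between the groups, as did 24.1% of all tested genes; UNC13A passed the filter through the labelled overexpression libraries alone. ERC1, an ELKS protein found at active zones and at other sites of exocytosis, had 4.45, 3.81 and 3.34 FPKM in labelled overexpression replicates 1, 2 and 3 and 2.08, 1.78 and 1.94 FPKM in the control vector replicates. UNC13A, the human Munc13-1, which primes vesicles by opening syntaxin, had 1.48, 1.46 and 2.099 FPKM in labelled overexpression and 0.877, 0.982 and 0.589 FPKM in control vector libraries. The lowest labelled overexpression library was above the highest control for each, with means of 3.87 ± 0.553 against 1.93 ± 0.148 FPKM for ERC1 and 1.68 ± 0.364 against 0.816 ± 0.203 FPKM for UNC13A (SD, n = 3 each). Neither passed, with log2 fold changes of 0.84 for ERC1 (SE 0.20, adjusted p = 0.0799) and 0.73 for UNC13A (SE 0.26, adjusted p = 0.191) in limma-trend with Benjamini-Hochberg adjustment. In limma-voom on the recovered fragments of the 13984 tested genes ERC1 passed (log2 fold change 0.96, Benjamini-Hochberg adjusted p = 0.0462). ERC1 shares 100 exonic bases with RP11-359B12.2 on the other strand, which had 0.413 to 0.901 FPKM in labelled overexpression and 0.404 to 2.89 FPKM in control vector libraries.

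The large active zone scaffolds were all below 1 FPKM. RIMS2, a RIM protein that links RAB3 to the release site, had 0.657, 0.577 and 0.611 FPKM in labelled overexpression and 0.127, 0.407 and 0.384 FPKM in control vector libraries, without overlap. Its fold in limma-voom was 2.34 (95% interval 1.18 to 4.65, Benjamini-Hochberg adjusted p = 0.231), and an exonic stretch of 221 bases is shared with the processed pseudogene RP11-771F20.1. Its paralog RIMS1 had 0.310 to 0.677 FPKM in labelled overexpression and 0.175 to 0.686 FPKM in control vector libraries. PCLO, BSN and ERC2 (piccolo, bassoon and the brain form of ELKS) ran from 0.362 to 0.474, from 0.368 to 0.485 and from 0.226 to 0.608 FPKM in labelled overexpression, and from 0.108 to 0.406, from 0.0901 to 0.489 and from 0.171 to 0.635 FPKM in control vector libraries. These 4 genes overlapped between the groups.

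In the recycling group 4 of 5 genes were tested, 0 passed, and all 4 had log2 fold changes above 0, where 1.14% of all tested genes passed and 56.8% were above 0. DNM1, the neuronal dynamin, had 3.32, 3.64 and 1.91 FPKM in labelled overexpression and 1.62, 2.296 and 1.604 FPKM in control vector libraries. SYNJ1, the lipid phosphatase that uncoats vesicles, had 1.1, 1.49 and 1.87 FPKM in labelled overexpression and 0.696, 1.08 and 0.857 FPKM in control vector libraries. It passed the filter through the labelled overexpression libraries, as only control vector replicate 2 of the controls reached 1 FPKM. SNAP91, the clathrin adaptor AP180, had 3.20, 5.51 and 3.52 FPKM in labelled overexpression and 2.79, 2.61 and 2.99 FPKM in control vector libraries. SYNJ1 and SNAP91 did not overlap between the groups, as did not 24.1% of all tested genes, though by narrow gaps. DNM1 overlapped through labelled overexpression replicate 3. The log2 fold changes were 0.54, 0.52 and 0.44, with limma-trend Benjamini-Hochberg adjusted p of 0.318, 0.340 and 0.338.

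BIN1, an amphiphysin family protein that shapes membrane and is widely expressed, was the most abundant of the recycling genes. It had 16.1, 15.1 and 11.9 FPKM in labelled overexpression and 11.1, 12.3 and 13.1 FPKM in control vector libraries, and labelled overexpression replicate 3 lay inside the control range. Its log2 fold change was 0.22 (95% interval -0.12 to 0.57, limma-trend, Benjamini-Hochberg adjusted p = 0.483). Its neuronal relative AMPH, amphiphysin itself, was listed at 0 in all 6 libraries. DNM1 shares 46 exonic bases with CIZ1 on the other strand.

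Adhesion and postsynaptic genes were near the bottom of the range. HOMER1, a scaffold of metabotropic glutamate receptor signalling with an immediate early short form, had 1.47, 1.05 and 1.04 FPKM in labelled overexpression and 0.486, 0.675 and 0.715 FPKM in control vector libraries. HOMER1 passed the filter through the labelled overexpression libraries alone. Its groups lay apart, as did those of 24.1% of all tested genes, with a log2 fold change of 0.58 (SE 0.26, limma-trend, Benjamini-Hochberg adjusted p = 0.283). NLGN1, the neuroligin of excitatory synapses, was the single member whose labelled overexpression libraries all lay below the controls, at 0.0931, 0.0770 and 0.0945 FPKM against 0.142, 0.153 and 0.397 FPKM. Each library held only 16 to 175 of its fragments, and limma-voom gave a fold of 0.434 (95% interval 0.163 to 1.15, Benjamini-Hochberg adjusted p = 0.383).

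The remaining members of that group overlapped. NLGN2, the neuroligin of inhibitory synapses, had 0.333 to 0.610 FPKM in labelled overexpression and 0.216 to 0.566 FPKM in control vector libraries, and the presynaptic partner NRXN2 had 0.110 to 0.113 and 0.0838 to 0.316 FPKM. DLG4, the postsynaptic scaffold PSD-95, had 0.0318 to 0.221 FPKM in labelled overexpression and 0.00216 to 0.138 FPKM in control vector libraries, with a single fragment in control vector replicate 1. DLG4 shares 49 exonic bases with the far more abundant ACADVL on the other strand, at 40.5 to 42.9 FPKM in labelled overexpression and 29.8 to 30.8 FPKM in control vector libraries. Over all 38 members with any signal, 10 lay apart upwards and 1 downwards, where 9.78% and 5.63% of the 33905 genes with any signal did.

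**Figure D4:**
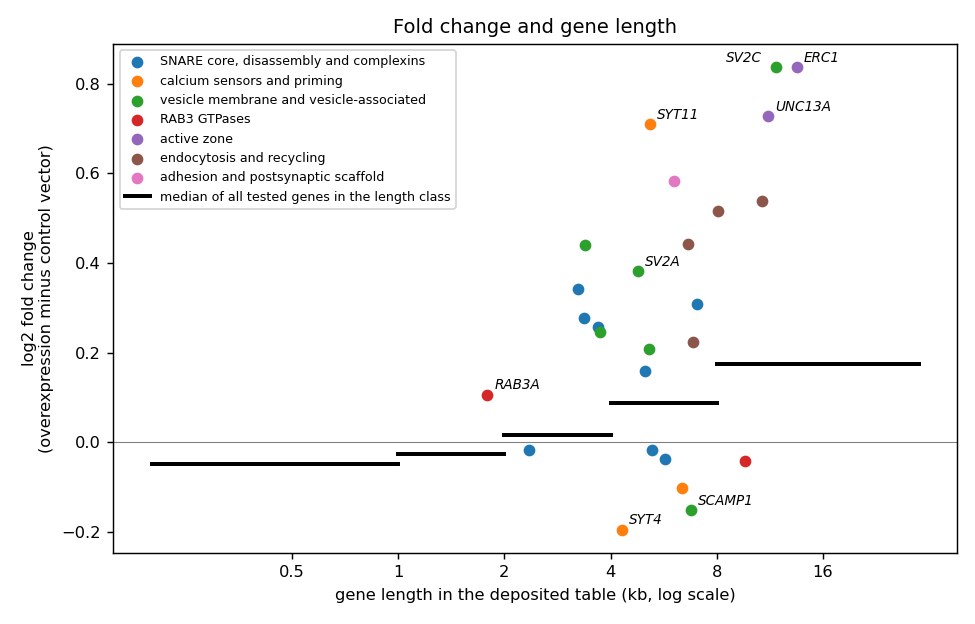
Log2 fold change (labelled overexpression minus control vector) of the 26 tested synapse genes against gene length in the table (log scale), coloured by role; black bars are medians of all tested genes in 5 length classes. The class medians run from -0.05 up to 1 kb to 0.17 over 8 kb, and ERC1, SV2C and UNC13A lie in the longest class.

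Synapse genes are long, and fold changes moved with length in these libraries. Across the 13984 tested genes Spearman's rho of the log2 fold change with gene length was 0.22, a description across genes that share the same libraries. The median length of the tested members was 5462 bases, against 3829 bases for all tested genes. In the class over 8000 bases the 6 tested members had a median log2 fold change of 0.63 and all 2193 genes 0.17. Between 4000 and 8000 bases the 13 members had 0.21 and all 4509 genes 0.09, and between 2000 and 4000 bases the 6 members had 0.27 and all 3284 genes 0.02. With the length trend removed from each library the members' median was 0.23 and that of all tested genes 0.02. ERC1, SV2C and UNC13A then had 0.68, 0.69 and 0.58.

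**Figure D5:**
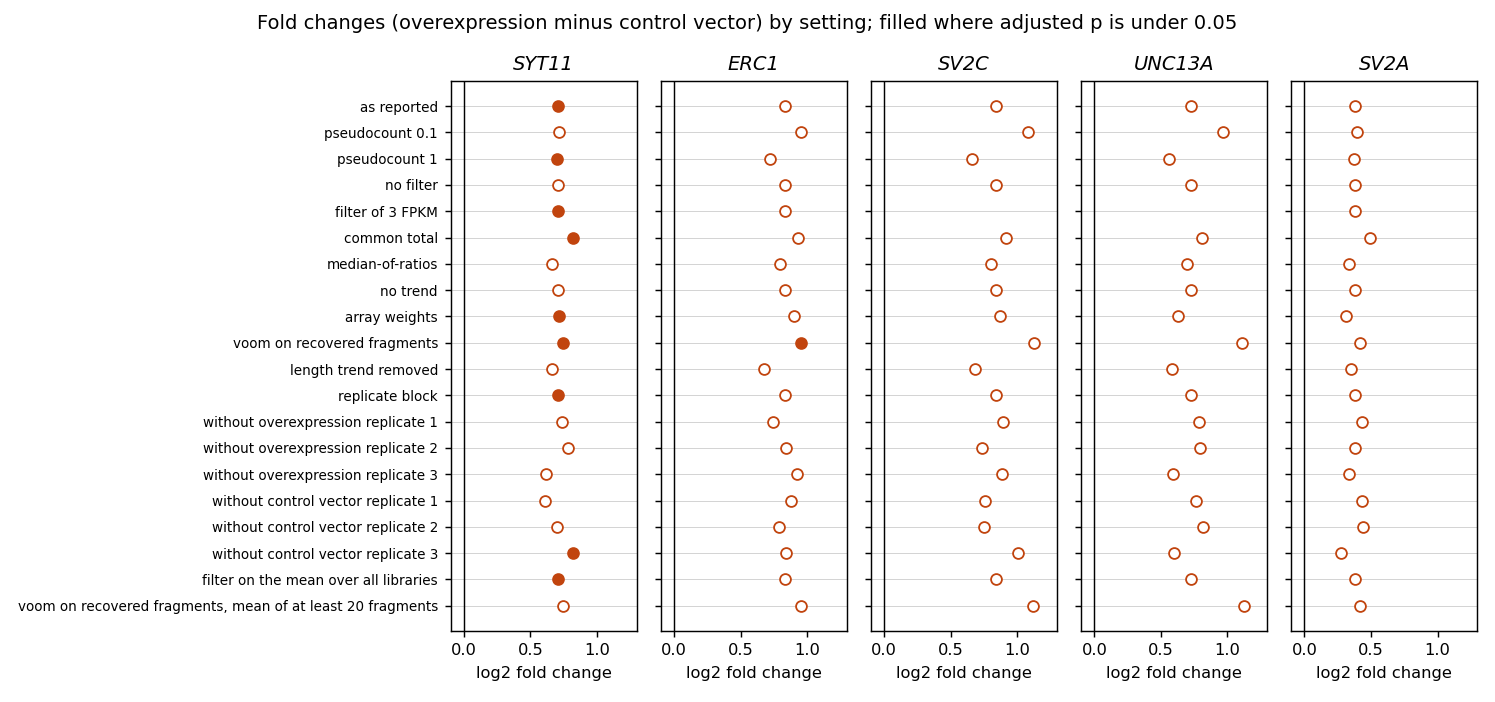
Log2 fold change (labelled overexpression minus control vector) of the 5 tested synapse genes with an unadjusted p under 0.05, by processing setting, filled where the adjusted p is under 0.05. All values lie above 0; SYT11 is filled as reported and in 8 of 19 alternatives, ERC1 in 1, and SV2C, UNC13A and SV2A in none, with SV2C and UNC13A absent under the filter of 3 FPKM.

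Further genes of the same machinery, 142 in 6 lists chosen by role, gave 81 tested genes. In limma-trend with Benjamini-Hochberg adjustment 0 were higher and 0 lower, where 0.529% and 0.608% of all tested genes were. At an unadjusted limma-trend p under 0.05, 9 were higher and 1 lower, where 10.4% and 7.34% of all tested genes were. In limma-voom on all 13984 tested genes 1 of the 81 passed, ITSN1 (Benjamini-Hochberg adjusted p = 0.0331), where 127 of the 13984 did. The median limma-trend log2 fold change of the 81 genes was 0.21. Of them 62 were above 0, where 56.8% of all tested genes were. Among 22 tested endocytic genes CLTC, the clathrin heavy chain, had the smallest p, with 61.8, 60.3 and 72.9 FPKM in labelled overexpression and 42.4, 37.5 and 50.9 FPKM in control vector libraries (limma-trend, log2 fold change 0.58, Benjamini-Hochberg adjusted p = 0.0791). CLTC passed without control vector replicate 3, with a filter of 3 FPKM, with array weights and with the replicate block (limma, Benjamini-Hochberg adjusted p = 0.0499, 0.0466, 0.0460 and 0.0357). CLTB, a clathrin light chain, averaged 33.4 ± 8.04 FPKM in labelled overexpression and 19.95 ± 4.28 FPKM in control vector libraries, and the endocytic scaffold ITSN1 averaged 1.98 ± 0.0994 and 0.976 ± 0.0747 FPKM (SD, n = 3 each). Both lay apart between the groups without passing, with log2 fold changes of 0.72 and 0.75 (limma-trend, Benjamini-Hochberg adjusted p = 0.128 and 0.137).

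Among 18 other SNARE and SM genes tested, the endosomal SNARE VTI1A had a log2 fold change of 0.53 and VAMP3, the cellubrevin of recycling endosomes, -0.36, with limma-trend Benjamini-Hochberg adjusted p of 0.276 and 0.207. VAMP3 was the single tested gene of these lists whose labelled overexpression libraries all lay below the controls, at 26.3, 27.5 and 29.7 FPKM against 30.2, 37.9 and 40.0 FPKM. Among 11 other active zone genes the 3 of smallest p were UNC13B, a Munc13 of wider tissue range, at 0.50, and the scaffolds LIN7B and APBA1 at 0.47 and 0.50. The 17 other vesicle and RAB genes were led by the RAB3 exchange factor MADD at 0.40, SCAMP2 at 0.32 and RAB27A, a GTPase of secretory granules, at -0.56. In the 9 adhesion and postsynaptic genes the smallest p went to the receptor phosphatase PTPRS at 0.36, DLGAP4 at 0.45 and the inhibitory synapse scaffold GPHN at 0.45, and in the 4 other calcium sensors to SYT3, ESYT1 and RPH3A at 0.30, 0.13 and 0.21. The groups did not overlap for 16 of these 81 genes, 15 of them with labelled overexpression above, a share of 19.8% where 24.1% of all tested genes lay apart.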

How the data were processed

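The single deposited table gives FPKM for 60612 genes in 6 libraries, scaled by the authors to gene length and library size, per the file headers. The gene length column is likewise the deposited one. Per the labels' protocols, column-purified RNA went into a SMART-seq kit and was read as paired ends. STAR 2.7.9, featureCounts 2.0.1 and GRCh38.p13 come from the submitters' processing notes. The sources used here do not give the strand setting of the counting.

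FPKM times length was a multiple of 0.01 of a common step in each library (tolerance 0.001 fragments, values up to 1000 fragments), which gave the depth, with 44.2% to 49.0% of the values whole. The values were expected as FPKM, so no count model was chosen for the main test. It was limma-trend (limma 3.58.1, R 4.3.3) on log2(FPKM + 0.5), for both directions. Benjamini-Hochberg adjustment ran over 13984 genes that had at least 1 FPKM in at least 3 libraries. No block or covariate was used. The pseudocount understates changes of low genes. limma-voom on the fragments was an alternative. The fit was also run on simulated data, with changes set only in genes of higher expression and no trend on length. That run cannot show how the fit performs on low genes. The members, lists and motifs were chosen with earlier results of these data known. Named were all members, CDKN2B-AS1, genes overlapping a tested member, and the 3 genes of smallest p in each further list; REST was added for the promoter motifs. One gene that this rule names is not reported here.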

Additional observations from a re-analysis of the deposited data

How the results depend on the processing

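The median log2 fold change of the tested members stayed above 0 in all 19 alternatives. It was 0.37 with values rescaled to a common total, where the median of all tested genes was 0.15 in place of 0.05, 0.33 with limma-voom, 0.33 with limma-voom over genes with a mean of at least 20 fragments, and 0.22 to 0.35 with a library left out. The 1 member higher became 0 with a pseudocount of 0.1, without a filter, with median-of-ratios factors, without the trend, with the length trend removed and in limma-voom over genes with a mean of at least 20 fragments. It became 2 in limma-voom on the tested genes, and 0 to 1 with a library left out. The other synapse genes gave 1 higher with a filter of 3 FPKM, with array weights, in limma-voom in both forms and with the replicate block, and 0 to 1 with a library left out. The members with groups not overlapping were 4 under the filter of 3 FPKM, which tested 17 members, where 2577 of all 9591 genes did not overlap. Of the 26 tested members 18 kept their sign in every alternative; NAPA, NAPB, CPLX1, RAB3C, NSF, RAB3A, SYP and SCAMP1 did not, and none of these 8 passed anywhere.

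Replicate numbers are shared between the groups, but no label says that they mark a pair. Deviations of same-numbered libraries correlated at -0.02, 0.11 and 0.12, and those of differently numbered libraries at -0.18 to 0.10. With 3 libraries per group these values cannot decide whether the numbers mark pairs, and the main fit did not use them. With the replicate block 1 member passed as before, with a median of 0.27, while 229 of all tested genes passed in place of 159. Without a filter and without the trend 0 genes passed in the whole transcriptome, and the cause was not tested. Members below about 1 FPKM rest on few fragments, and their folds are the least certain.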
